A study of Mus musculus with 6 samples.

Results

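The genes described here encode the cytotoxic effector molecules of lymphocytes: the granzymes Gzma, Gzmb, Gzmc, Gzmk and Gzmm, perforin (Prf1), Fas ligand (Fasl) and the granule proteins Nkg7, Srgn and Ctsw. They were chosen by name, and all 10 were measured, out of 22180 genes with a row of their own on the array. Each had exactly 1 row with no other gene symbol. A further row that names Prf1 together with a mitochondrial gene was left out. Expression was measured on Affymetrix whole-transcript arrays in samples labelled as invariant natural killer T (iNKT) cells, T cells with a nearly fixed receptor that recognise lipids on CD1d. The extraction protocol in the labels speaks instead of frozen tissue, and no isolation step is stated, so whether the RNA came from purified iNKT cells is not settled. There were 3 arrays of PLZF_ON mice, whose transcription factor PLZF (gene Zbtb16) is held in an acetylated state, and 3 arrays of WT control mice. The study used replicates 1 and 2 of each group in its analyses, and these 4 arrays give the main comparison, with replicate 3 shown beside them. The strain, age and organ of the mice, how the PLZF_ON allele was made and which cells express it are not given in these sources. Separate animals are not stated for the replicates. The p-values therefore measure only the spread among these arrays, and that spread may be technical. Zbtb16 itself was at 10.48, 10.68 and 9.54 in PLZF_ON replicates 1 to 3, against 9.96, 10.19 and 9.82 in WT replicates 1 to 3. The difference was 0.51 over 4 arrays (limma adjusted p = 0.369), and the groups overlapped over all 6. These levels do not check the labels, since the allele changes the protein's acetylation.

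Cytotoxic lymphocytes kill by 2 routes. In the first, granules fuse with the membrane facing a target cell, perforin opens the target membrane, and granzymes, serine proteases stored on the proteoglycan serglycin (Srgn), enter and cleave proteins that start cell death. In the other, Fas ligand on the cell surface engages the death receptor Fas on the target. Among iNKT cells, the interferon-gamma-producing NKT1 subset is known for carrying this equipment.

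All arrays carried the T cell markers Cd3e, Cd3d, Cd3g, Thy1, Cd2 and Zbtb16, with 6 of 6 measured markers above a log2 value of 5.21. This limit stands for background here and is the 95th percentile of the means of 1394 receptor genes for smell and pheromones. PLZF_ON replicate 3 stood apart from the other arrays, with correlations across rows of 0.895 to 0.898 with them, against 0.957 to 0.973 among the other 5. It also carried more signal of other cell types: the myeloid calprotectin gene S100a8 was at 7.29 in that array, against 2.61 and 2.83 in the other PLZF_ON arrays and 2.73 to 3.09 in WT, and Cd8b1, a chain of the CD8 coreceptor, was at 7.77, against 5.08 and 5.89 in PLZF_ON replicates 1 and 2 and 5.20 to 5.54 in WT. Of the 7 myeloid markers and of the 2 CD8 markers, 0 were above the limit on all arrays of either group. The log2 of the summed myeloid markers was 7.13 to 9.11 in PLZF_ON and 7.17 to 7.36 in WT, and that of the CD8 markers 5.79 to 8.29 in PLZF_ON and 5.90 to 6.19 in WT. Of the 4 measured B cell markers and of the 6 mast cell and basophil markers, 0 were above the limit on all arrays of either group. Their summed levels ran from 6.32 to 6.53 in PLZF_ON and 6.27 to 6.43 in WT for B cells, and from 6.37 to 6.52 in PLZF_ON and 6.17 to 6.26 in WT for mast cells and basophils. The main comparison leaves PLZF_ON replicate 3 out, and the part of these other cell types in the 6-array values was not tested. In a bulk sample, fewer cells of a type and less RNA per cell cannot be told apart.

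The effector genes divided into those that were lower on every PLZF_ON array and those that were not. Gzmb, Fasl, Nkg7, Gzmc and Ctsw lay below all WT arrays on each of the 3 PLZF_ON arrays. Gzma was low on 1 PLZF_ON array alone, and Prf1, Srgn, Gzmk and Gzmm had overlapping groups. None of the 10 passed limma over all rows in the 4-array comparison (Benjamini-Hochberg adjusted p under 0.05, reached by 0.17% of all rows), so each difference below is a measured value and not a called change. At an unadjusted p under 0.05, 5 of the 10 were lower, against 4.53% of all rows, and 0 were higher, so that 5 differed in either direction, against 9.41% of all rows. Over all 6 arrays 0 passed the adjusted test (0.0935% of all rows did), and the same 5 were lower at an unadjusted p under 0.05, against 3.32% of rows lower and 5.77% in either direction. These 5 also had groups that did not overlap, against 19.3% of all rows over 4 arrays and 6.22% over all 6. Of the 10, 0 lay wholly above WT over 6 arrays, against 5.55% of all rows. Over 4 arrays the median log2 difference of the 10 genes was -0.998, against -0.0035 over all tested rows, and 10 of 10 were below 0, against 50.7% of rows. Over 6 arrays the median was -0.948, against 0.026 over all rows, and 9 of 10 were below 0, against 45% of rows, with Gzmm as the exception.

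**Figure D1:**
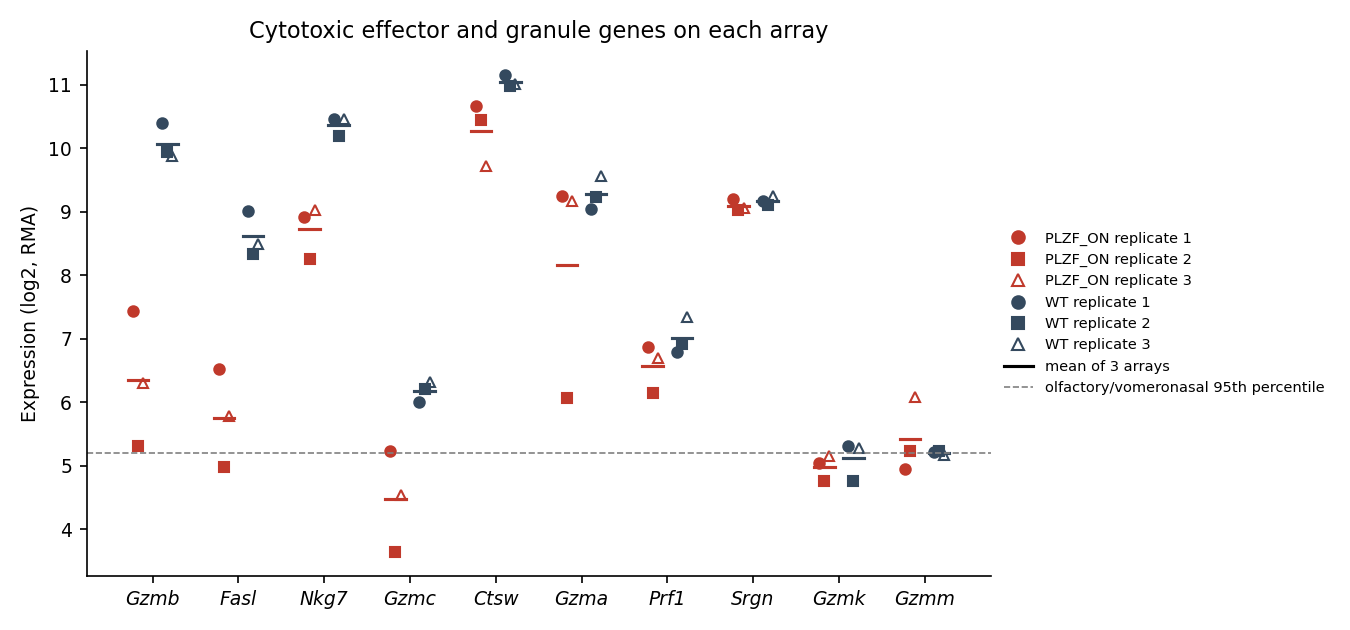
Log2 expression (vertical axis) of the 10 genes (horizontal axis) on each PLZF_ON array (red) and each WT array (dark blue), with the mean of 3 arrays as a bar and replicate 3 as open triangles. The dashed line at 5.21 is the background limit. Gzmb, Fasl, Nkg7, Gzmc and Ctsw have no overlap between the groups, and Gzma is low in PLZF_ON replicate 2 alone.

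Gzmb, a granzyme that cleaves proteins after aspartate residues, caspases among them, had the most negative log2 difference of all 23521 tested rows in the 4-array comparison. Its log2 level was 7.44, 5.32 and 6.30 in PLZF_ON replicates 1 to 3, against 10.41, 9.94 and 9.88 in WT replicates 1 to 3. Every PLZF_ON array was thus more than 2 log2 units under every WT array, and the PLZF_ON arrays also differed among themselves by up to 2.12, against 0.52 among WT arrays. Over 4 arrays the difference was -3.80 (SE 0.63, n = 2 arrays per group), or 13.9-fold lower, with a limma adjusted p of 0.115. Over all 6 arrays it was -3.73 (SE 0.47, n = 3 arrays per group), with a limma adjusted p of 0.055. The size of the difference turned on single arrays: without PLZF_ON replicate 1 of the 4 it was -4.86, and without PLZF_ON replicate 2 it was -2.74.

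Fasl, the ligand of the death receptor Fas, had the same order of PLZF_ON arrays. Its log2 level was 6.52, 4.97 and 5.78 in PLZF_ON replicates 1 to 3, against 9.02, 8.34 and 8.49 in WT replicates 1 to 3. All PLZF_ON arrays were low, and PLZF_ON replicate 2 lay under the background limit of 5.21. The difference was -2.93 (SE 0.50, limma adjusted p = 0.118), or 7.64-fold lower, over 4 arrays and -2.86 (SE 0.38, limma adjusted p = 0.0584) over 6. Among all rows it was the 8th most negative difference in both comparisons.

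Nkg7, a granule membrane protein needed for degranulation, was at 8.91, 8.25 and 9.02 in PLZF_ON replicates 1 to 3, against 10.47, 10.19 and 10.46 in WT replicates 1 to 3. Its PLZF_ON arrays were closer to each other than those of Gzmb or Fasl, with a range of 0.77. The difference was -1.75 (SE 0.24, limma adjusted p = 0.0759), or 3.36-fold lower, over 4 arrays, and -1.64 (SE 0.23, limma adjusted p = 0.0714) over 6. Without PLZF_ON replicate 3, the 5 remaining arrays gave -1.79 with a limma adjusted p of 0.0271 for Nkg7, while Gzmb and Fasl stayed above the threshold there, with 0.052 and 0.0541.

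Promoter sequence was available for 9 of the 10 genes, with 11 transcription starts, from RefSeq (build GRCm38.p6, 250 bases before to 50 after a start). The stretches of Gzmb (chr14:56262285-56262584 on the minus strand), Fasl (chr1:161788446-161788745 on the minus strand) and Nkg7 (chr7:43436888-43437187 on the plus strand), the genes with the lowest adjusted p here, are printed beside that of Prf1 (chr10:61297586-61297885 on the plus strand), whose groups overlapped. Capitals mark 2 motifs on either strand, the T-box core GGTGTG, a sequence recognised by T-bet and Eomes, and the Runx core TGTGGT.
Gzmb: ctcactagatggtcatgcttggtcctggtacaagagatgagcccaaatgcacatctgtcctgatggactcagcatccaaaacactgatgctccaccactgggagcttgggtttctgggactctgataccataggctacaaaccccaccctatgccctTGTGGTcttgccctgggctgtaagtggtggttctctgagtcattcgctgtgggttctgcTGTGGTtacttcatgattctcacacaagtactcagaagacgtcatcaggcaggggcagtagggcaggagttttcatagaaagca
Fasl: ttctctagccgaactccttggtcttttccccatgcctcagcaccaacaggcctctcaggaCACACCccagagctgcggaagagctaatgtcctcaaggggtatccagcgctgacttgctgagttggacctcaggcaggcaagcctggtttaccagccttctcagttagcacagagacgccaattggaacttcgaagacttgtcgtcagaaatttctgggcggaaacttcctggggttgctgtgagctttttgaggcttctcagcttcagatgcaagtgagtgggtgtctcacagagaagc
Nkg7: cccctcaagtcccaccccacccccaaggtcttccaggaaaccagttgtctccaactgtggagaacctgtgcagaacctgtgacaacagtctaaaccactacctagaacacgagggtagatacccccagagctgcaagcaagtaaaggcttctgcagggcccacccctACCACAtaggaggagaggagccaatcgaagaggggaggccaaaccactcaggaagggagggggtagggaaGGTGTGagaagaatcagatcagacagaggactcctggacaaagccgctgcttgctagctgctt
Prf1: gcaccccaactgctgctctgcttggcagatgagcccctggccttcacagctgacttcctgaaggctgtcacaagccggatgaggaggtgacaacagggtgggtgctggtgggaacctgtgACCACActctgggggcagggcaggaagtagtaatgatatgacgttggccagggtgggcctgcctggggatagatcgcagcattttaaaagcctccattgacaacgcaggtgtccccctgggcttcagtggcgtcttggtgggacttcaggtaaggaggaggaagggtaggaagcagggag
The T-box core was in 5 of the 11 starts, those of Fasl, Nkg7, Gzmc, Gzmk and 1 start of Gzmm, against 19% of 32851 mouse promoters of this length. The Runx core was in 7 of the 11, against 16.8% of promoters, and it stood 2 times in the Gzmb promoter and 1 time in that of Prf1. The AP-1 site TGANTCA was in 1 of the 11, that of Gzmb, against 7.81%. Matches of these 3 motifs did not overlap each other in the 11 stretches. The Runx core was found in Prf1 and Gzma, whose groups overlapped, and not in Fasl. The T-box core was absent from Gzmb. It was found in Gzmk and in 1 start of Gzmm, whose groups overlapped and which were close to the background limit. The part of these motifs in the differences was not tested. A match describes the letters in this window and does not show binding.

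Gzmc, a mouse granzyme in the same chromosome 14 cluster as Gzmb, was under the background limit of 5.21 on PLZF_ON replicates 2 and 3 and above it on all WT arrays. It was at 5.23, 3.64 and 4.54 in PLZF_ON replicates 1 to 3, against 6.002, 6.208 and 6.317 in WT replicates 1 to 3. The PLZF_ON mean of 4.44 over replicates 1 and 2 was under the background limit, so the difference of -1.67 (SE 0.48, limma adjusted p = 0.324), or 3.18-fold lower, would be 1.86-fold lower if PLZF_ON were set at that limit. Without PLZF_ON replicate 2 the difference was -0.88 and without PLZF_ON replicate 1 it was -2.46. The other measured genes of that cluster and of its mast cell protease neighbours (Gzmd, Gzmf, Gzmg, Gzmn, Ctsg, Cma1, Mcpt1, Mcpt2, Mcpt4 and Mcpt8) were under the limit in both groups, 10 of 10. Their median difference was 0.0063, and 0 passed at an unadjusted p under 0.05, against 9.41% of all rows.

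Ctsw, cathepsin W, a cysteine protease made by NK cells and cytotoxic T cells, was bright in both groups. It was at 10.66, 10.44 and 9.73 in PLZF_ON replicates 1 to 3, against 11.16, 10.98 and 11.02 in WT replicates 1 to 3. The groups did not overlap, but the separation was small beside that of Gzmb. The difference was -0.52 (SE 0.15, limma adjusted p = 0.345), or 1.43-fold lower, over 4 arrays and -0.78 (SE 0.25, limma adjusted p = 0.616) over 6, where PLZF_ON replicate 3 was the lowest array.

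Gzma, a tryptase-like granzyme, did not follow Gzmb. Its log2 level was 9.25, 6.07 and 9.17 in PLZF_ON replicates 1 to 3, against 9.04, 9.24 and 9.57 in WT replicates 1 to 3. PLZF_ON replicates 1 and 3 lay inside the WT range, and PLZF_ON replicate 2 lay 3.22 below the mean of the 3 WT arrays. The 4-array difference of -1.48 (SE 0.92, limma adjusted p = 0.732) rests on that array: without it the difference was 0.11, and without PLZF_ON replicate 1 it was -3.07. Over all 6 arrays it was -1.12 (SE 0.77, limma adjusted p = 0.941).

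PLZF_ON replicate 2 was also the lowest of the 6 arrays for 3 of the 4 measured NK cell markers, Ncr1, Eomes and Klrb1c, and not for Itga2. Ncr1, the NK receptor NKp46, was at 7.65, 4.80 and 8.25 in PLZF_ON replicates 1 to 3, against 5.80, 6.68 and 7.48 in WT replicates 1 to 3. Eomes, a T-box factor of NK cells and memory T cells, was at 6.33, 4.22 and 5.62 in PLZF_ON, against 4.6, 5.31 and 5.85 in WT. Klrb1c, the NK1.1 receptor, was at 8.63, 7.25 and 7.78 in PLZF_ON, against 10.24, 10.02 and 9.30 in WT, the only one of the 4 whose groups did not overlap. Itga2, an integrin chain, was at 7.48, 7.29 and 6.77 in PLZF_ON, against 6.26, 7.17 and 7.48 in WT. Of the 4, 2 were above the limit on all PLZF_ON arrays and 3 on all WT arrays. The log2 of their summed signal was 9.74, 8.47 and 9.41 in PLZF_ON replicates 1 to 3, against 10.41, 10.37 and 10.03 in WT replicates 1 to 3. Klrb1c was the brightest of the 4 on every WT array and weighs most in that sum. The sum is therefore not a count of NK cells. The 4-array differences were -2.19 for Klrb1c, -0.02 for Ncr1, 0.32 for Eomes and 0.67 for Itga2. Their part in the values of Gzma, Gzmb and the other effector genes was not tested.

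Prf1, the pore-forming protein that lets granzymes into the target, overlapped between the groups. It was at 6.87, 6.14 and 6.69 in PLZF_ON replicates 1 to 3, against 6.79, 6.91 and 7.33 in WT replicates 1 to 3. PLZF_ON replicate 2 was the lowest array, and PLZF_ON replicate 1 was above WT replicate 1. The difference was -0.35 (SE 0.25, limma adjusted p = 0.775) over 4 arrays, with a 95% interval of -0.94 to 0.25. Over all 6 arrays it was -0.445 (SE 0.24, limma adjusted p = 0.941), with a 95% interval of -0.997 to 0.107. Without PLZF_ON replicate 2 of the 4 the difference was 0.02, and without PLZF_ON replicate 1 of the 4 it was -0.71.

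Srgn, the proteoglycan core on which granzymes and perforin are packed, hardly varied. It was at 9.20, 9.02 and 9.06 in PLZF_ON replicates 1 to 3, against 9.17, 9.11 and 9.24 in WT replicates 1 to 3. The arrays of both groups were interleaved. The difference was -0.03 (SE 0.14, limma adjusted p = 0.98), with a 95% interval of -0.37 to 0.31 over 4 arrays.

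Gzmk and Gzmm, granzymes with tryptase-like and methionine-preferring cleavage, were close to the background limit. Gzmk was at 5.04, 4.76 and 5.15 in PLZF_ON replicates 1 to 3, against 5.31, 4.76 and 5.28 in WT replicates 1 to 3. Gzmm was at 4.94, 5.23 and 6.08 in PLZF_ON replicates 1 to 3, against 5.22, 5.23 and 5.18 in WT replicates 1 to 3. The groups of both genes overlapped, and the value of Gzmm in PLZF_ON replicate 3 alone stood clear of the limit of 5.21. Their 4-array differences were -0.14 (SE 0.22, limma adjusted p = 0.924) for Gzmk and -0.13 (SE 0.15, limma adjusted p = 0.885) for Gzmm, and that of Gzmm was 0.21 over all 6 arrays.

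**Figure D2:**
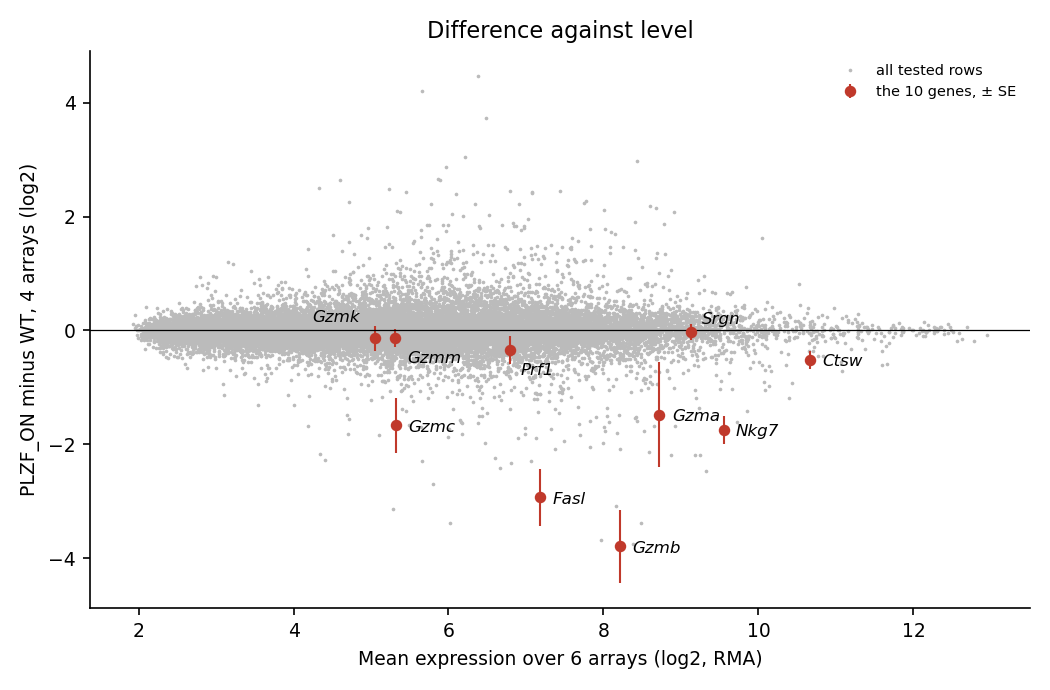
Log2 difference of PLZF_ON minus WT over 4 arrays (vertical axis) against the mean log2 expression over 6 arrays (horizontal axis) for all 23521 tested rows (grey) and the 10 genes (red, bars are SE). Gzmb lies at the lower edge of all rows, Fasl at -2.93, and Srgn and Ctsw, both bright, at -0.03 and -0.52.

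The gap between Gzmb and Prf1 was compared within arrays, where only the change of the gap between groups has a meaning. Gzmb minus Prf1 was 0.57, -0.83 and -0.40 in PLZF_ON replicates 1 to 3, against 3.61, 3.03 and 2.55 in WT replicates 1 to 3. The gap was smaller on every PLZF_ON array than on every WT array. The difference of the group means was -3.45 over 4 arrays (exact permutation p = 0.333, two-sided) and -3.28 over 6 (exact permutation p = 0.1), in each case the smallest p that number of arrays allows. The pair was chosen with the values known.

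Most rows, and most of the 10 genes, varied more among PLZF_ON arrays than among WT arrays. The SD over 3 arrays was larger in PLZF_ON for 9 of the 10, Gzmk being the exception, and for 73% of all rows. The median SD in PLZF_ON was 0.539 for the 10 genes and 0.272 for all rows. In WT it was 0.215 for the 10 genes and 0.155 for all rows. The SD includes PLZF_ON replicate 3, the highest of the 6 arrays for 40% of all rows and the lowest for 27.1%. PLZF_ON replicate 2 held the lowest value of the 6 arrays for 8 of the 10, Ctsw and Gzmm being the exceptions, against 15.6% of all rows.

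Genes whose profile over the 6 arrays was most like that of an effector gene were found by the mean absolute difference of log2 values after each gene was centred on its own mean, among 11082 brighter genes. For Gzmb these were Slamf7, a receptor of the SLAM family (0.34), Fasl (0.43), Klra5, a Ly49 receptor (0.48), and the integrin chain Itgae (0.48), where the median over all genes was 1.83. For Fasl they were Cd7 (0.18), Slamf7 (0.22), the interleukin-12 receptor chain Il12rb2 (0.33) and Klra5 (0.35), against a median of 1.40. For Prf1 they were Lgalsl (0.08), the cytokine Tnf (0.09), Tbc1d22bos (0.11) and Klhl17 (0.11), against a median of 0.36. The genes were chosen on these same arrays. Low PLZF_ON values in those alike to Gzmb and Fasl follow from that choice and are no separate result. Slamf7 was at 7.55, 5.51 and 6.72 in PLZF_ON replicates 1 to 3, against 9.80, 9.42 and 9.97 in WT replicates 1 to 3, and had a 4-array difference of -3.08 (SE 0.61, limma adjusted p = 0.167). Itgae was at 6.53, 6.12 and 5.39 in PLZF_ON replicates 1 to 3, against 9.73 to 10.04 in WT, with no overlap. It fell by 3.69 over 4 arrays (SE 0.17, limma adjusted p = 0.00693) and was the only gene of those most alike to Gzmb or Fasl to pass over 4 arrays. Without PLZF_ON replicate 2, 0 rows passed, Itgae included, with 1803 under an unadjusted p of 0.05.

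**Figure D3:**
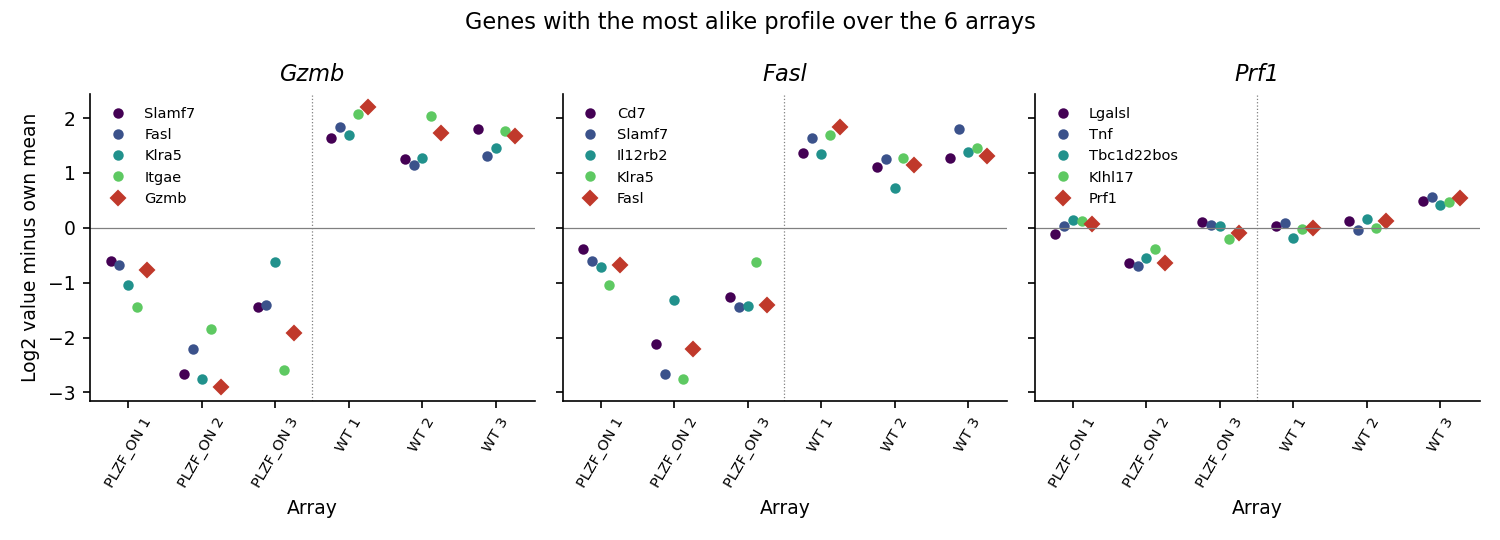
Log2 value minus the gene's own mean (vertical axis) on each PLZF_ON array and each WT array (horizontal axis, left and right of the dotted line) for Gzmb, Fasl and Prf1 (red diamonds) and the 4 genes most alike to each (circles). Genes alike to Gzmb and Fasl sit below 0 on all PLZF_ON arrays, which follows from how they were chosen, and Prf1 is lowest in PLZF_ON replicate 2.

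The wider machinery around the granule was followed in 6 lists with 74 measured genes. Over 4 arrays 0 of the 74 passed limma over all rows. At an unadjusted p under 0.05, 19 were lower, against 4.53% of all rows, and 3 were higher, against 4.88% of all rows.

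Of 11 measured genes for granzyme activation and inhibition, 3 were lower and 0 higher at that unadjusted p, against 4.53% and 4.88% of all rows. Ctsc, the protease that activates granzymes by removing their amino-terminal dipeptide, was at 8.88, 8.92 and 8.27 in PLZF_ON replicates 1 to 3, against 8.75, 8.79 and 8.74 in WT replicates 1 to 3. Serpinb9, the inhibitor of granzyme B that protects killer cells from their own enzyme, was at 6.35, 5.61 and 6.58 in PLZF_ON, against 6.23, 6.10 and 6.03 in WT. Over 4 arrays the difference was 0.13 (SE 0.13, limma adjusted p = 0.865) for Ctsc and -0.19 (SE 0.25, limma adjusted p = 0.907) for Serpinb9. The groups of both genes overlapped over the 6 arrays, unlike those of Gzmb. The aspartic protease Ctsd had a difference of -0.91 (SE 0.17, limma adjusted p = 0.152). Serpinb6b, an intracellular serine protease inhibitor, had -0.79 (SE 0.19, limma adjusted p = 0.241), and Serpinb1a, another such inhibitor, -1.18 (SE 0.31, limma adjusted p = 0.287). These 3 genes, named for the smallest p of the list, lay wholly below WT over 6 arrays, against 6.22% of all rows. The 4-array means of Serpinb1a, 3.95 in PLZF_ON and 5.13 in WT, were both under the background limit. Its WT replicates 1 and 3 were above that limit, at 5.61 and 5.50.

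Of 17 measured genes for granule biogenesis and exocytosis, 2 were lower and 1 higher at an unadjusted p under 0.05. The shares of all rows were 4.53% lower and 4.88% higher. The list median was -0.0035 over 4 arrays, the same as over all rows. Over 6 arrays it was -0.138, against 0.026 over all rows. Lyst, a regulator of lysosome size that is mutated in beige mice, was at 7.06, 6.90 and 6.86 in PLZF_ON replicates 1 to 3, against 8.38, 7.92 and 8.41 in WT replicates 1 to 3. Its PLZF_ON arrays lay closer together than its WT arrays. The difference was -1.18 (SE 0.19, limma adjusted p = 0.11) over 4 arrays and -1.30 (SE 0.18, limma adjusted p = 0.0728) over 6. Sytl1, a Rab27 effector, had -0.56 (SE 0.14, limma adjusted p = 0.26), and the granule membrane protein Lamp1 0.42 (SE 0.14, limma adjusted p = 0.431). The difference was 0.03 (SE 0.15) for Rab27a, a GTPase of granule docking, -0.0035 (SE 0.14) for Unc13d, which encodes Munc13-4, and 0.04 (SE 0.14) for the syntaxin-binding protein Stxbp2. Sytl2, like Sytl1 a Rab27 effector, had -0.26 over 4 arrays and -0.55 over 6. Over all 6 arrays 3 of the 17 were lower and 0 higher at an unadjusted p under 0.05. Of all rows, 3.32% were lower there and 5.77% differed in either direction.

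Genes that build the glycosaminoglycan chains of serglycin, 11 of them measured, had 2 lower and 0 higher at an unadjusted p under 0.05. The shares of all rows were 4.53% lower and 4.88% higher. The list median was 0.008 over 4 arrays and -0.168 over 6, where that of all rows was 0.026. With all 6 arrays 1 was lower and 1 higher, against 3.32% of all rows lower and 5.77% in either direction. Chsy1, a chondroitin synthase, had a difference of -0.75 (SE 0.18, limma adjusted p = 0.252) on its brighter row and -0.88 (SE 0.19) on its other row. Chpf, a chondroitin polymerising factor, had -0.33 (SE 0.13, limma adjusted p = 0.505), and the sulfotransferase Chst11 had 0.40 (SE 0.22, limma adjusted p = 0.69).

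On the Fas ligand side, 10 genes of the death receptor pathway were measured, with a median of -0.26. At an unadjusted p under 0.05, 4 were lower and 0 higher, against 4.53% and 4.88% of all rows. Over all 6 arrays 1 was lower and 0 higher, against 3.32% of all rows lower and 5.77% in either direction. There neither Tnfrsf1a nor Bid was under that p. The receptor Fas itself was at 7.37, 6.94 and 6.79 in PLZF_ON replicates 1 to 3, against 6.31, 6.87 and 6.38 in WT replicates 1 to 3, a difference of 0.56 (SE 0.24, limma adjusted p = 0.553), opposite in sign to that of its ligand. Tnfsf10, the death ligand TRAIL, had -0.72 (SE 0.16, limma adjusted p = 0.203), the TNF receptor Tnfrsf1a -0.59 (SE 0.23, limma adjusted p = 0.494), and the pro-death protein Bid -0.56 (SE 0.19, limma adjusted p = 0.42). Fas, Ctsc, Serpinb9, Rab27a, Unc13d, Stxbp2 and Sytl2 were named for their place in the pathway, after their values were seen.

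Transcription factors and cytokine receptors that are known to control cytotoxic genes had 8 lower and 2 higher of 15 measured at an unadjusted p under 0.05. The shares of all rows were 4.53% lower and 4.88% higher, and the list median was -0.63. With all 6 arrays 7 were lower and 0 higher, against 3.32% of all rows lower and 5.77% in either direction. Il12rb2 was at 7.11, 6.51 and 6.40 in PLZF_ON replicates 1 to 3, against 9.18, 8.54 and 9.21 in WT replicates 1 to 3. Il12rb2 did not pass over 4 arrays (limma adjusted p = 0.075), and over all 6 it fell by 2.31 (SE 0.26, limma adjusted p = 0.0425, the threshold that 0.0935% of all rows passed). That call was lost, with 0 rows passing, without PLZF_ON replicate 2, WT replicate 1 or WT replicate 2, where 1531, 852 and 960 rows were under an unadjusted p of 0.05. The T-box factor Tbx21 had a 4-array difference of -1.53 (SE 0.24, limma adjusted p = 0.102) and Bhlhe40 one of -1.35 (SE 0.21, limma adjusted p = 0.104).

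**Figure D4:**
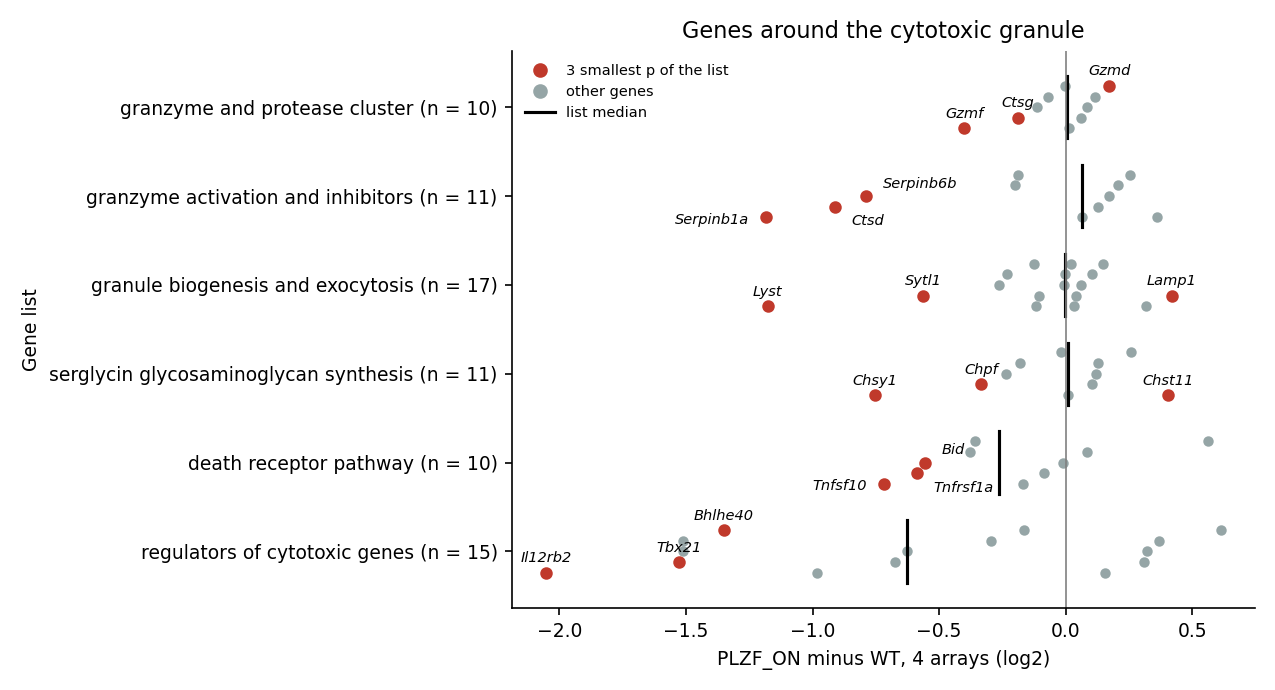
Log2 difference of PLZF_ON minus WT over 4 arrays (horizontal axis) for each measured gene of 6 lists (vertical axis), with the 3 smallest p of each list in red and the list median as a black bar. The medians of the protease cluster, activation, exocytosis and glycosaminoglycan lists lie between -0.0035 and 0.065, that of the death receptor pathway at -0.26 and that of the regulators at -0.63.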

How the data were processed

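Biotin-labelled total RNA was hybridised to Affymetrix whole-transcript arrays, per the labels' protocols. The deposited table holds log2 values made with RMA, per the submitters' processing notes. RMA corrects background, equalises array distributions and summarises probes, which shrinks differences of dim genes. The build is not given in the sources used here. Depth does not apply to arrays, and their number limits the precision.

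Of 41345 deposited rows, 23521 with 1 gene symbol in the platform annotation were tested, and 1814 with several symbols and 16010 not listed there were left out. For each gene the brightest row over 6 arrays was used. PLZF_ON and WT (replicates 1 and 2, then all 3) were compared with limma 3.58.1 in R 4.3.3, with genotype as the only term, two-sided, adjusted by Benjamini-Hochberg over all tested rows. The script was tested on simulated data. The background limit was also chosen after results were seen. The members, lists and tests were chosen with earlier results of these data known. Named genes were the 10 members, up to 3 genes per list with the smallest p, and the 4 most alike profiles for Gzmb, Fasl and Prf1. Alternatives were other arrays, array weights, a replicate block, a variance trend, other scalings and other row sets. Figures were drawn with matplotlib 3.10.9.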

Additional observations from a re-analysis of the deposited data

How the results depend on the processing

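Gzmb, Fasl, Nkg7, Gzmc and Ctsw were lower in PLZF_ON under all 21 alternatives tried, with log2 differences from -4.86 to -2.74 for Gzmb, -3.71 to -2.16 for Fasl, -2.08 to -1.41 for Nkg7, -2.46 to -0.877 for Gzmc and -0.968 to -0.406 for Ctsw. Their limma adjusted p ran from 0.0112 to 0.442 for Gzmb, 0.0124 to 0.446 for Fasl and 0.00566 to 0.398 for Nkg7. The lowest values came from array weights over 6 arrays. A replicate block gave 0.0357 for Gzmb, 0.0218 for Fasl and 0.0303 for Nkg7 over 4 arrays, and 0.037 for Gzmb, 0.0273 for Fasl and 0.048 for Nkg7 over 6, where none passed without it. No pairing is stated, so the numbers were not taken as pairs in the main comparison. Deviations of same-numbered arrays correlated at 0.0916, 0.253 and 0.239 over 6 arrays. Among differently numbered arrays, PLZF_ON replicate 1 and WT replicate 2 correlated at 0.124, and the others at -0.235 to -0.0298. These values do not settle whether the numbers are pairs, and whether Gzmb, Fasl and Nkg7 passed depended on it. The count of members lower at an unadjusted p under 0.05 ran from 4 to 7 when single arrays were left out and was 5 in the other settings. The Gzmb minus Prf1 difference ran from -4.15 to -2.75 in those settings and was -3.45 with the replicate block. The differences of Gzma, Prf1, Srgn, Gzmk and Gzmm changed sign in some settings, and the cause was not tested. Without single arrays of the 4, Gzma ran from -3.07 to 0.11, Prf1 from -0.708 to 0.0155, Srgn from -0.119 to 0.0615, Gzmk from -0.417 to 0.136 and Gzmm from -0.281 to 0.012. Srgn was 0.005 without WT replicate 1 and 0.0579 over 6 arrays after quantile normalization. Gzmm was 0.211 over all 6 arrays, with or without the replicate block, and 0.273 after quantile normalization. Without single arrays of the 6, Gzmm was 0.449, 0.303, 0.215, 0.222 and 0.195 (without PLZF_ON replicates 1 and 2 and WT replicates 1, 2 and 3), and it was -0.119 without PLZF_ON replicate 3. The number of rows passing limma over the whole table was 40 with 4 arrays, 22 with all 6 (21 after quantile normalization), 259 with array weights and 101 with the replicate block. It was 0 when all 41345 rows were tested (smallest limma adjusted p = 0.252, with 3042 rows under an unadjusted p of 0.05). Leaving out single arrays gave 0 to 106 from 4 arrays and 0 to 107 from 6, with 0 without PLZF_ON replicate 2, WT replicate 1 or WT replicate 2. The count was 0 without PLZF_ON replicate 2 of the 4, with 1803 rows under an unadjusted p of 0.05. With 1 array left in a group, that array was assumed to vary like those of the other group. The replicate block, quantile normalization and left-out arrays over 6 arrays were chosen after seeing the data.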
